A study of Mus musculus with 10 samples.

Results

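The immediate early genes examined here were Arc, Fos, Fosb, Jun, Junb, Egr1, Egr3, Egr4, Npas4 and Nr4a1, which were picked by name from the 55536 genes of a raw count table. All 10 were found in the table and were exempt from the filter on low counts. They were tested with the other genes that were kept, 20301 in all. The table holds ribosome-bound RNA from the primary somatosensory cortex of mice (S1DZ in the labels), taken by translating ribosome affinity purification, in which an antibody against GFP pulls down tagged ribosomes. Libraries came from 3 driver lines: Il-17ra-Cre (3 libraries), Il-17rb-Cre (3 libraries) and Il-17rc-Cre (4 libraries), each with Cre recombinase driven from the gene of that interleukin-17 receptor subunit. All 10 libraries carry the same virus, AAV5-EF1α-Flex-EGFPL10a, in which Cre switches on a GFP-tagged copy of the ribosomal protein L10a. It was given at 400 nl per side and 0.1 µl per minute, and left for 4 weeks. Only cells that the virus reached and in which the driver gene was active at that time carry the tag. The labels name no stimulus, and neither the handling before collection nor the age, sex or strain of the mice is given in the sources used here. Whether each replicate is a different animal is not stated in the labels, so p-values measure the spread between these libraries.

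Immediate early genes are transcribed within minutes of a stimulus, without the need for new protein synthesis. In neurons, calcium entering through synaptic receptors and voltage-gated channels activates kinases that act on CREB, SRF and MEF2 factors already bound at these genes, and their mRNAs are widely used as a record of recent activity. Most encode transcription factors; growth factors, cytokines and cell stress also induce several of them, in glia as well as in neurons.

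Total counts ran from 39692925 to 78794795 in 9 libraries and reached 165844244 in Il-17ra-Cre replicate 3. The lowest count of any of the 10 genes in any library was 39, for Npas4 in Il-17rc-Cre replicate 1, so none was at 0. Levels are given as CPM, counts scaled to library size with TMM factors, and errors beside means are standard deviations. No driver gene had its highest mean in its own group. Il17ra was at 18.5 ± 2.53 CPM in Il-17ra-Cre (n = 3), 26.5 ± 7.31 in Il-17rb-Cre (n = 3) and 18.8 ± 2.97 in Il-17rc-Cre (n = 4). Il17rc was at 29.4 ± 10.4, 1.89 ± 1.15 and 28.3 ± 8.37 CPM in the same order. Il17rb was at 0.714 ± 0.138 CPM in Il-17rb-Cre (n = 3), 2.26 ± 1.31 in Il-17ra-Cre (n = 3) and 1.27 ± 1.13 in Il-17rc-Cre (n = 4). Levels of Rpl10a, which encodes the protein that carries the tag, were 58.7, 70.9 and 678.8 CPM in the Il-17ra-Cre replicates, at 602.4 to 669.6 CPM in Il-17rb-Cre and at 190.8 to 267.1 CPM in Il-17rc-Cre. Directions below therefore rest on the labels as deposited.

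Promoter sequence is shown for 4 genes that took different courses under library-size scaling in the comparisons that follow. Nr4a1 and Egr4 were higher in Il-17rb-Cre libraries, Fos passed no test, and Jun was lower. Each run is the 250 bases before the RefSeq start of the gene (GRCm38.p6), 5′ to 3′ on the coding strand, from chr15:101266596-101266845 on the plus strand for Nr4a1, chr6:85513590-85513839 on the minus strand for Egr4, chr12:85473640-85473889 on the plus strand for Fos and chr4:95052223-95052472 on the minus strand for Jun. Capitals mark TGACG or its reverse complement CGTCA, the core of the cAMP response element that CREB binds, TATAA, the TATA box, and TGACATCA, the AP-1-like element of the Jun promoter. The table of promoters matched 7 of the 10 genes and holds no entry for Arc, Egr1 and Egr3. The Nr4a1 run lies inside the annotated span of the gene, which begins at 101254269, so it precedes an internal start. The Npas4 window, which is not printed, also lies inside the span of its gene.
Nr4a1: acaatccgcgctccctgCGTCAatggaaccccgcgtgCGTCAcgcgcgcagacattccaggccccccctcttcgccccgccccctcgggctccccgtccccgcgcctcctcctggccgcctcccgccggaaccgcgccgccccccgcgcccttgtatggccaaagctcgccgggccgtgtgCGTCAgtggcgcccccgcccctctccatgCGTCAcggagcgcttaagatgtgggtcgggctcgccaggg
Egr4: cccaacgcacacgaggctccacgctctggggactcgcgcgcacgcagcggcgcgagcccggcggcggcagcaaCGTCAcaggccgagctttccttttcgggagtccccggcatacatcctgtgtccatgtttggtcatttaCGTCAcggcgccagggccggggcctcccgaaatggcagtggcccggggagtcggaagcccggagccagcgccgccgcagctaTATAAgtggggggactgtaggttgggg
Fos: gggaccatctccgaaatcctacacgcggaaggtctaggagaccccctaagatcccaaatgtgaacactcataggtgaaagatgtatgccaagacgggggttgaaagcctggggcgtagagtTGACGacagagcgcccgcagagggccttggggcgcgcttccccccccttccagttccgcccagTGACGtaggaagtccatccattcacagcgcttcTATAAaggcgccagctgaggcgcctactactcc
Jun: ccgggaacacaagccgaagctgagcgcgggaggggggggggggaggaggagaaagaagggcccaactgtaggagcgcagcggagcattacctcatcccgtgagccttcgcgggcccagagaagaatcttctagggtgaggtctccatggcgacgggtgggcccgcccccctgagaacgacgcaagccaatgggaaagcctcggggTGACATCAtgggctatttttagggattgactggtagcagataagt

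The Nr4a1 run holds 4 copies of the CREB core, all read on the opposite strand, with the nearest at 40 to 36 bases before the start. The Egr4 run holds 2, at 177 to 173 and at 109 to 105 bases before the start, and the Fos run also holds 2, the nearer at 66 to 62. No copy is in the Jun run, which has TGACATCA at 45 to 38 bases before the start. The core was searched on both strands and found in 6 of the 7 windows (Fos, Fosb, Junb, Egr4, Npas4 and Nr4a1), against 17.8% of 32851 promoter windows of the same length. TATAA, found in Fos, Egr4 and Npas4, is in 22.8% of all windows, and TGACATCA in 2.93%. The CArG box, the SRF site, was searched only as the exact pattern of CC, 6 letters A or T, and GG. That pattern was in none of the 7 windows and in 1.47% of all windows. Sites further from the start, or with a changed letter, were not searched, so SRF sites may have been missed. The marked motifs do not overlap. Genes on both courses, Nr4a1 and Egr4 as well as Fos, carry the CREB core, and a match is a description of the letters only.

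The Egr genes encode zinc finger transcription factors that bind the same GC-rich element. All 3 were higher in Il-17rb-Cre libraries than in either other group under library-size scaling, but none passed the test when scaled to neuronal markers, where Egr4 was near 0 and turned to -0.0065 against Il-17ra-Cre with Tubb3 left out of the markers. The median log2 fold change of 12 pan-neuronal markers was 1.67 in both comparisons. Egr1 (ENSMUSG00000038418, GRCm38 chromosome 18, 34859823 to 34864984), also known as Zif268, was at 1637, 2361 and 1894 CPM in the Il-17rb-Cre replicates. In the Il-17ra-Cre replicates it was at 219.4, 248.8 and 783.9 CPM, and in the Il-17rc-Cre replicates at 495.5, 423.5, 474.7 and 972.2 CPM. The lowest Il-17rb-Cre library lay above the highest library of each other group, and 1 library of each of these, replicate 3 and replicate 4, was far above its fellows. Egr1 was higher by a log2 fold change of 2.23 ± 0.50 (SE) against Il-17ra-Cre (edgeR adjusted p = 0.00575) and of 1.73 ± 0.45 against Il-17rc-Cre (adjusted p = 0.0123). Without Il-17ra-Cre replicate 3 the first of these was 3.07, and without Il-17rb-Cre replicate 2 the second was 1.52 and missed the threshold (edgeR adjusted p = 0.0503).

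Egr3 (ENSMUSG00000033730, chromosome 14, 70077203 to 70082614) had the smallest spread of the 10 genes. It was at 175.1, 178.5 and 189.4 CPM in the Il-17rb-Cre replicates, at 29.4, 36.0 and 58.6 CPM for Il-17ra-Cre and at 66.6, 46.0, 56.5 and 58.5 CPM for Il-17rc-Cre. The Il-17rb-Cre libraries stood clear of the other 7, which overlapped each other. The log2 fold change was 2.13 ± 0.25 against Il-17ra-Cre (edgeR adjusted p = 0.000159) and 1.67 ± 0.23 against Il-17rc-Cre (edgeR adjusted p = 0.000314). Egr4 (ENSMUSG00000071341, chromosome 6, 85511121 to 85513589) was at 232.4, 280.3 and 219.4 CPM in the Il-17rb-Cre replicates, at 36.3, 50.9 and 123.8 CPM in those of Il-17ra-Cre and at 71.5, 39.6, 64.8 and 102.0 CPM in those of Il-17rc-Cre. The other groups again overlapped each other and stayed below Il-17rb-Cre. The log2 fold change of Egr4 was 1.79 ± 0.45 (edgeR adjusted p = 0.0101) and 1.81 ± 0.41 (edgeR adjusted p = 0.00611) against Il-17ra-Cre and Il-17rc-Cre, and 2.49 against Il-17ra-Cre without its replicate 3.

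Nr4a1 (ENSMUSG00000023034, chromosome 15, 101254269 to 101274795) encodes Nur77, a nuclear receptor that acts without a known natural ligand. It was at 494.7, 576.7 and 332.1 CPM in the Il-17rb-Cre replicates. In the Il-17ra-Cre replicates it was at 76.7, 101.9 and 169.4 CPM, and in the Il-17rc-Cre replicates at 77.0, 69.1, 43.9 and 113.8 CPM. No library of the other groups reached the lowest Il-17rb-Cre library. The log2 fold change was 2.01 ± 0.39 against Il-17ra-Cre (edgeR adjusted p = 0.00256) and 2.62 ± 0.36 against Il-17rc-Cre (edgeR adjusted p = 0.000339).

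Arc (ENSMUSG00000022602, chromosome 15, 74669083 to 74672570) is the one gene of the 10 that encodes no transcription factor: its protein acts at synapses, where it promotes the removal of AMPA receptors. It was at 1159, 2117 and 1151 CPM in the Il-17rb-Cre replicates, at 482.0, 445.6 and 794.4 CPM in those of Il-17ra-Cre and at 180.1, 203.2, 116.0 and 382.4 CPM in those of Il-17rc-Cre. The 3 groups were in steps, with no overlap between any of them. Arc was higher in Il-17rb-Cre than in Il-17rc-Cre by 2.74 ± 0.41 on the log2 scale (edgeR adjusted p = 0.000549). Against Il-17ra-Cre the log2 fold change was 1.36 ± 0.43 (edgeR adjusted p = 0.0288). The call against Il-17ra-Cre was lost without Il-17ra-Cre replicate 1 (1.27, edgeR adjusted p = 0.0869), without its replicate 2 (1.20, edgeR adjusted p = 0.0958) and without Il-17rb-Cre replicate 2 (1.01, edgeR adjusted p = 0.111).

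**Figure D1:**
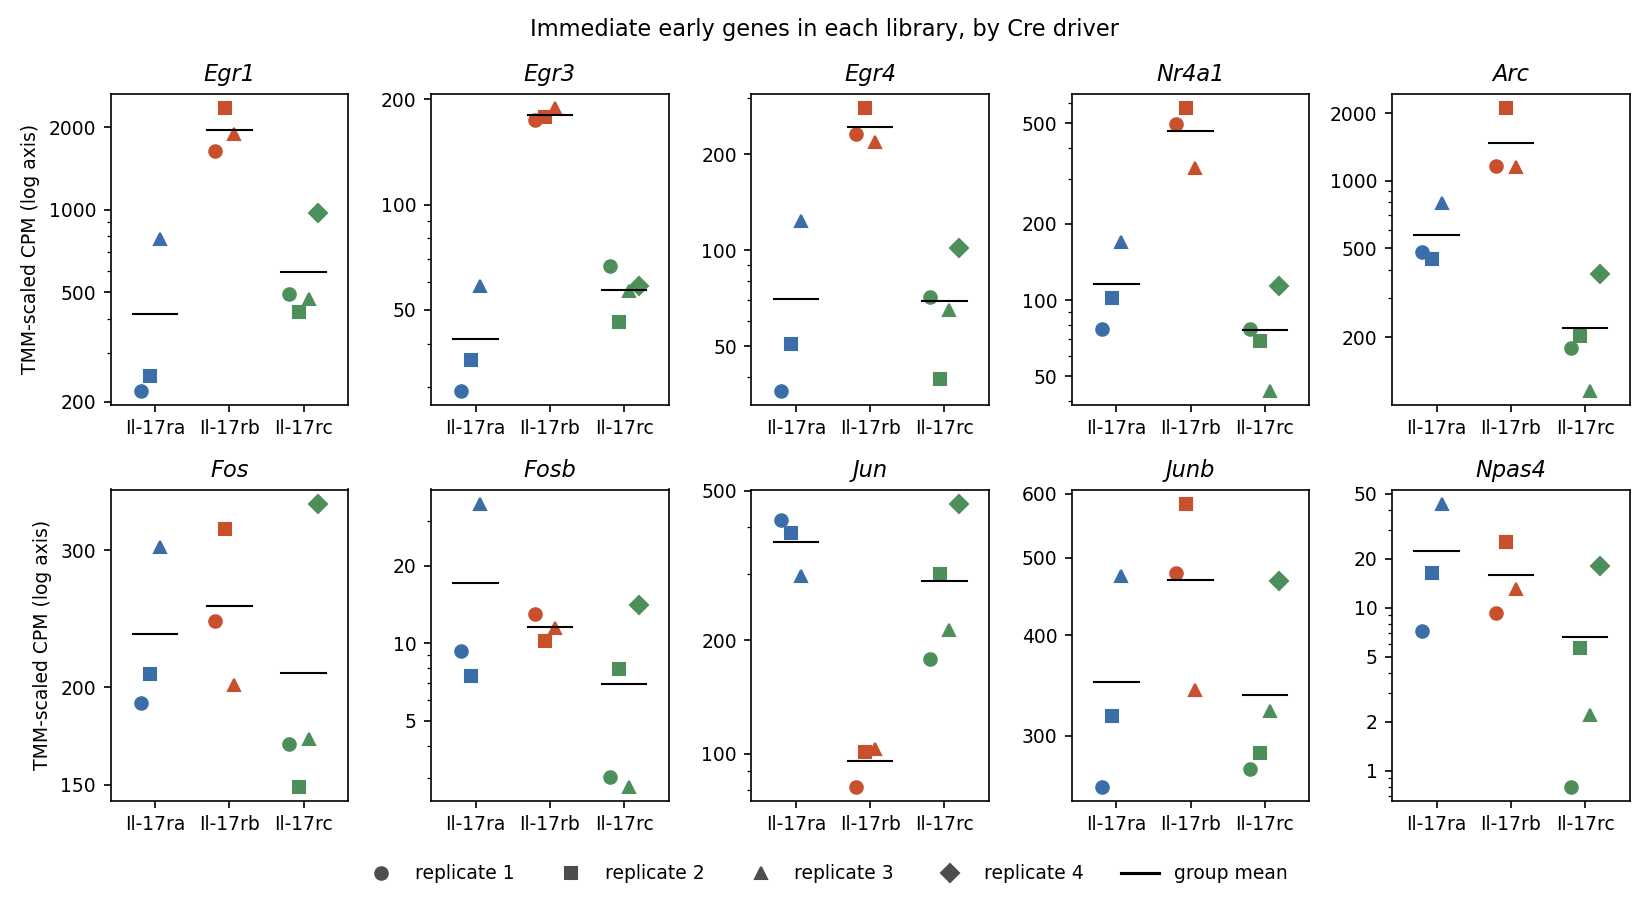
TMM-scaled CPM of each immediate early gene in each library (vertical axis, log scale, different for each gene), by Cre driver on the horizontal axis, with marker shapes for replicates and a line at the group mean. Egr1, Egr3, Egr4, Nr4a1 and Arc lie above both other groups in all 3 Il-17rb-Cre libraries and Jun below them, while Fos, Fosb, Junb and Npas4 overlap; scaled to neuronal markers instead, Arc turns to -0.59 against Il-17ra-Cre.

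The AP-1 factors pair with each other to bind one element, and the Fos proteins need a Jun partner to do so. Of the 4 AP-1 genes, Jun was lower in Il-17rb-Cre libraries and the others passed no edgeR test under library-size scaling. Jun (ENSMUSG00000052684, chromosome 4, 95049034 to 95052222, a single exon) was at 81.7, 101.1 and 103.0 CPM in the Il-17rb-Cre replicates. It was at 417.3, 386.5 and 296.0 CPM in those of Il-17ra-Cre and at 178.7, 300.3, 212.6 and 462.6 CPM in those of Il-17rc-Cre. The Il-17rb-Cre libraries were the lowest 3 of the 10, and the other groups overlapped. The log2 fold change of Jun was -1.94 ± 0.33 against Il-17ra-Cre (edgeR adjusted p = 0.00122) and -1.60 ± 0.31 against Il-17rc-Cre (edgeR adjusted p = 0.00268). Of the exonic length of Jun, 7.28% overlaps the antisense gene Junos, and without strand information reads there cannot be told apart.

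Fos (ENSMUSG00000021250, chromosome 12, 85473890 to 85477273) was at 243.3, 319.6 and 201.2 CPM in the Il-17rb-Cre replicates, at 191.2, 208.0 and 302.6 CPM in those of Il-17ra-Cre and at 169.4, 149.3, 171.6 and 344.1 CPM in those of Il-17rc-Cre. All 3 groups overlapped, and the highest library was Il-17rc-Cre replicate 4. The log2 fold change of Il-17rb-Cre was 0.12 ± 0.33 against Il-17ra-Cre (edgeR adjusted p = 0.797) and 0.29 ± 0.31 against Il-17rc-Cre (edgeR adjusted p = 0.491). Junb (ENSMUSG00000052837, chromosome 8, 84974484 to 84978718), an AP-1 partner with weaker activating properties than Jun, was at 478.7, 583.4 and 342.4 CPM in the Il-17rb-Cre replicates and between 259.5 and 474.8 CPM in the other 7 libraries. Its log2 fold change was 0.42 ± 0.29 (edgeR adjusted p = 0.282) and 0.47 ± 0.27 (edgeR adjusted p = 0.192) against Il-17ra-Cre and Il-17rc-Cre. Of its exonic length, 7.52% overlaps Prdx2 on the other strand.

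Fosb and Npas4 varied most between replicates. Fosb (ENSMUSG00000003545, chromosome 7, 19302696 to 19310051), whose splice form ΔFosB builds up with repeated stimulation, was at 13.1, 10.2 and 11.5 CPM in the Il-17rb-Cre replicates, at 9.33, 7.46 and 34.9 CPM in those of Il-17ra-Cre and at 3.03, 7.96, 2.78 and 14.1 CPM in those of Il-17rc-Cre. The tight Il-17rb-Cre libraries lay inside the range of each other group. Npas4 (ENSMUSG00000045903, chromosome 19, 4984355 to 4990316), a neuronal factor that responds to calcium entry, was at 9.33, 25.2 and 13.1 CPM in the Il-17rb-Cre replicates. It was at 7.25, 16.4 and 43.5 CPM in those of Il-17ra-Cre and at 0.802, 5.67, 2.22 and 17.9 CPM in those of Il-17rc-Cre. All groups overlapped for Npas4. The log2 fold change of Npas4 was -0.50 ± 0.97 against Il-17ra-Cre (edgeR adjusted p = 0.714) and 1.25 ± 0.90 against Il-17rc-Cre (edgeR adjusted p = 0.298), and that of Fosb was -0.58 ± 0.70 (edgeR adjusted p = 0.541) and 0.73 ± 0.65 (edgeR adjusted p = 0.398). Without Il-17rc-Cre replicate 4, Npas4 was higher in Il-17rb-Cre by 2.45 (edgeR adjusted p = 0.0454).

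Between Il-17rb-Cre and Il-17ra-Cre, 5 of the 10 genes were thus higher (Arc, Egr1, Egr3, Egr4 and Nr4a1) and 1 lower (Jun), where 16.4% of all 20301 genes tested were higher and 24.4% lower. Between Il-17rb-Cre and Il-17rc-Cre, 5 were higher and 1 lower, with 17.7% and 21.9% of all genes. These comparisons share the Il-17rb-Cre libraries. Groups did not overlap for 6 of the 10 genes in each, where 53.8% and 53.0% of all genes were without overlap, so the share of the 10 genes was near that of all genes. The median log2 fold change of the 10 genes was 0.89 against Il-17ra-Cre and 1.46 against Il-17rc-Cre, beside -0.092 and 0.023 over all genes.

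Marker genes differed between the same groups, in tissue that the label calls cortex and in which neuronal, astrocyte and oligodendrocyte markers were all detected. The summed level of 12 pan-neuronal markers was 17274 to 17557 CPM in Il-17rb-Cre libraries, 5234 to 6676 in Il-17ra-Cre and 4231 to 5057 in Il-17rc-Cre. One of these markers, Tubb3, a neuronal tubulin, went the other way, with 2914, 2316 and 454.5 CPM in the Il-17ra-Cre replicates and 560.9 to 592.6 CPM in Il-17rb-Cre. Without it the sum was 2319, 3475 and 6221 CPM in the Il-17ra-Cre replicates, 16681 to 16968 in Il-17rb-Cre and 3915 to 4682 in Il-17rc-Cre, so the Il-17ra-Cre libraries were uneven in neuronal markers. The summed level of 12 excitatory neuron markers was 19403 to 22802, 1834 to 7770 and 2577 to 4134 CPM in Il-17rb-Cre, Il-17ra-Cre and Il-17rc-Cre. Inhibitory neuron markers differed from this, with 1040 to 1100, 338.3 to 514.7 and 836.3 to 1202 CPM: 6 of 12 were higher and 1 lower in Il-17rb-Cre than in Il-17ra-Cre, and 2 were higher and 2 lower than in Il-17rc-Cre. In the same order, that of 12 astrocyte markers was 747.3 to 785.4, 7596 to 14955 and 12630 to 20314 CPM, that of 12 oligodendrocyte markers 1080 to 1253, 6004 to 47066 and 1609 to 4563 CPM, and that of 12 microglia and macrophage markers 19.2 to 25.3, 685.7 to 1199 and 38.7 to 205.4 CPM. Against Il-17ra-Cre, 10 pan-neuronal and 11 excitatory markers were higher in Il-17rb-Cre, 1 pan-neuronal marker (Tubb3) was lower, and all 12 astrocyte, all 12 oligodendrocyte and all 12 microglia and macrophage markers were lower. Against Il-17rc-Cre, 10 pan-neuronal and all 12 excitatory markers were higher, and 12 astrocyte, 2 oligodendrocyte and 9 microglia and macrophage markers were lower. Among the microglial markers, Itgam, Ptprc and Mrc1 had no count in Il-17rb-Cre. These are libraries of pulled-down ribosomes, with no whole-tissue library beside them. Which cell types carried the tag, their number, their RNA per cell and RNA from untagged cells therefore cannot be told apart.

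Scaled to the 12 pan-neuronal markers instead of library size, none of the 10 genes was higher in Il-17rb-Cre than in Il-17ra-Cre and 4 were lower, where 0.493% of all genes were higher and 72.2% lower. The scaling itself moved the median log2 fold change of all genes to -2.13 against Il-17ra-Cre and to -1.63 against Il-17rc-Cre, and that of the 10 genes to -1.05 and -0.26. Egr1 was then at 0.49 ± 0.41 (edgeR adjusted p = 0.298) against Il-17ra-Cre, Egr3 at 0.24 ± 0.26 (edgeR adjusted p = 0.438), Egr4 at 0.030 ± 0.37 (edgeR adjusted p = 0.946) and Nr4a1 at 0.14 ± 0.39 (edgeR adjusted p = 0.765). Arc changed sign, to -0.59 ± 0.48 (edgeR adjusted p = 0.278). None of these 5 genes passed the test on this scale. With size factors from the 11 markers other than Tubb3, an alternative chosen after seeing the data, 0 were again higher and 4 lower. Per unit of neuronal marker, Fos was lower, at -1.84 ± 0.43 (edgeR adjusted p = 0.00251), Fosb at -2.28 ± 0.66 (edgeR adjusted p = 0.00913), Junb at -1.51 ± 0.35 (edgeR adjusted p = 0.00261) and Jun at -4.08 ± 0.57 (edgeR adjusted p = 0.000152), and Npas4 was at -2.17 ± 0.94 (edgeR adjusted p = 0.0549).

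Against Il-17rc-Cre under the same scaling, 1 of the 10 genes was higher, Nr4a1 by 0.93 ± 0.36 (edgeR adjusted p = 0.0402), and 3 were lower, where 0.355% of all genes were higher and 64.4% lower. Arc was at 1.03 ± 0.44 (edgeR adjusted p = 0.0599), while Egr1, Egr3 and Egr4 were at 0.024 ± 0.38, 0.0089 ± 0.25 and 0.12 ± 0.35. Fos was lower, at -1.42 ± 0.40 (edgeR adjusted p = 0.00993), Junb at -1.21 ± 0.33 (edgeR adjusted p = 0.00842) and Jun at -3.29 ± 0.53 (edgeR adjusted p = 0.000480). Per 1000 CPM of summed pan-neuronal markers, Egr3 was at 10.1, 10.3 and 10.8 CPM in the Il-17rb-Cre replicates, at 5.61, 6.21 and 8.78 in Il-17ra-Cre and at 13.6, 9.09, 11.6 and 13.8 in Il-17rc-Cre. The gap to Il-17ra-Cre rested on Tubb3: without it Egr3 was at 10.5, 10.6 and 11.2 in Il-17rb-Cre and at 12.7, 10.4 and 9.42 in Il-17ra-Cre, which overlap. Per 1000 CPM of all 12 markers, Nr4a1 was at 28.6, 33.1 and 18.9 in Il-17rb-Cre. In Il-17rc-Cre it was at 15.7, 13.7, 9.01 and 26.9, so these groups overlapped despite the call. On the same measure Fos was at 14.1, 18.4 and 11.5 in Il-17rb-Cre, below every library of Il-17ra-Cre (35.9 to 45.3) and Il-17rc-Cre (29.5 to 81.3). Jun was at 4.73, 5.81 and 5.87, with 44.3 to 79.7 and 36.5 to 109.3 in the other groups. Without Tubb3 both Fos and Jun were still below every library of the other groups. The share of all genes without overlap per unit of neuronal marker was not computed, so this is not shown to be particular to Fos and Jun. Jun was thus lower in Il-17rb-Cre on both scales, whereas Fos and Junb, and Fosb against Il-17ra-Cre, passed the test on this scale only. On this scale 72.2% of all genes were lower against Il-17ra-Cre and 64.4% against Il-17rc-Cre. Fos and Junb lay above the medians of all genes, -2.13 and -1.63, and Fosb lay just below the first. The part of the uneven neuronal and glial marker levels in these differences was not tested.

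**Figure D2:**
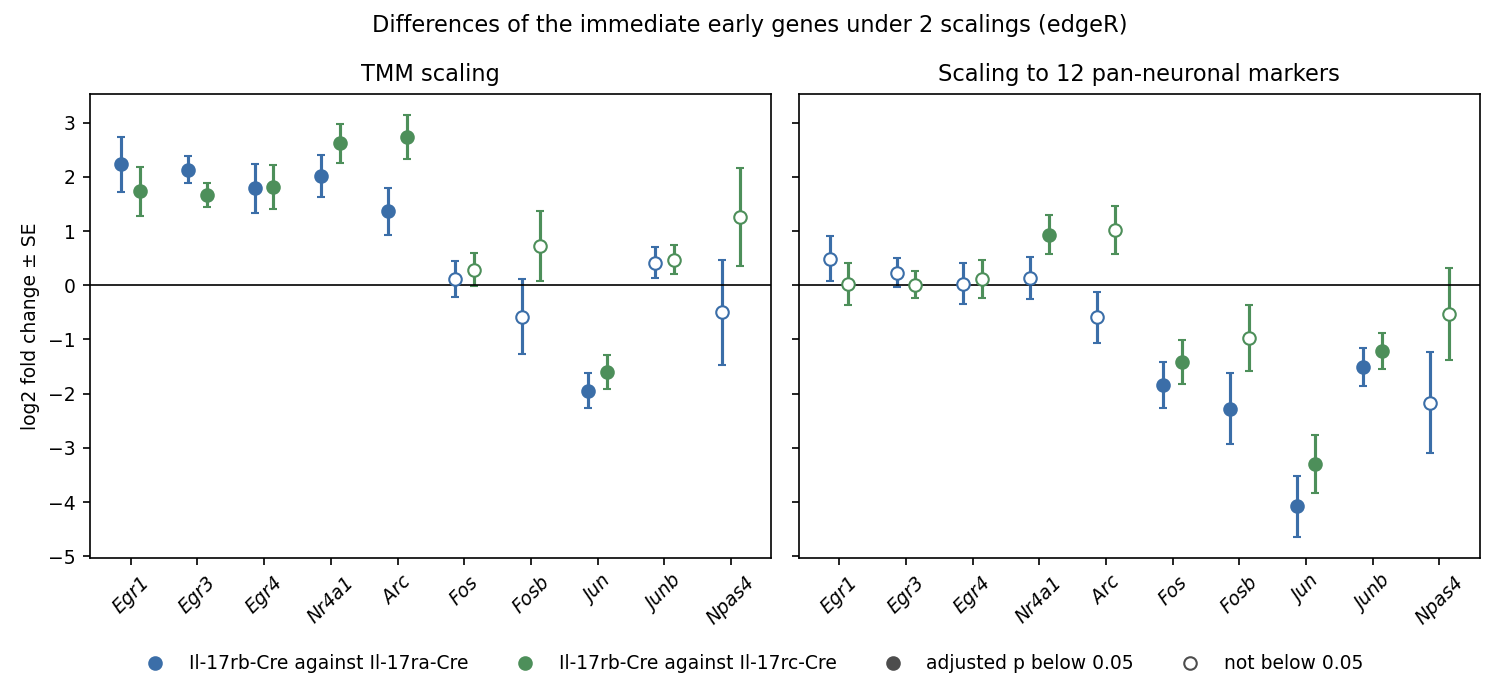
Log2 fold change ± SE of Il-17rb-Cre against Il-17ra-Cre (blue) and Il-17rc-Cre (green) for each gene, with library-size scaling on the left and scaling to 12 pan-neuronal markers on the right; filled points passed the test. Egr1, Egr3 and Egr4 move from about 2 to near 0, Nr4a1 keeps 1 call, Fos and Junb move from near 0 to below -1, and Jun is below 0 in both panels.

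Leaving out the libraries that stand apart changed part of this picture. Il-17ra-Cre replicates 1 and 2 had the lowest Rpl10a and the highest oligodendrocyte marker levels; without both, 1 library stands for that group, assumed to vary like the others, and only Egr3 (1.64 ± 0.24, edgeR adjusted p = 0.00268) was still higher and Jun (-1.62 ± 0.42, edgeR adjusted p = 0.0307) still lower in Il-17rb-Cre. Egr1 was then at 1.34 ± 0.48 (edgeR adjusted p = 0.0908), Nr4a1 at 1.48 ± 0.51 (edgeR adjusted p = 0.0812) Egr4 at 0.99 ± 0.45 (edgeR adjusted p = 0.171) and Arc at 0.91 ± 0.62 (edgeR adjusted p = 0.370). Il-17rc-Cre replicates 1 and 3 had the highest astrocyte marker levels, 19813 and 20314 CPM; without both, 3 genes were higher than in Il-17rc-Cre and 1 lower, and the calls of Egr1 (1.45, edgeR adjusted p = 0.107) and Egr4 (1.74, edgeR adjusted p = 0.0544) were lost.

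Between Il-17ra-Cre and Il-17rc-Cre none of the 10 genes passed edgeR's test, where 1.38% of all genes were higher and 0.798% lower. At an unadjusted p under 0.05 the count was 1, Arc, and DESeq2 called 1 gene, also Arc. The difference of Arc was 1.38 ± 0.40 on the log2 scale (edgeR adjusted p = 0.0947), with all 3 Il-17ra-Cre libraries above all 4 Il-17rc-Cre libraries, the only one of the 10 genes without overlap (14.6% of all genes had none). Egr1 was at -0.50 ± 0.46 (edgeR adjusted p = 0.632) and Egr3 at -0.46 ± 0.23 (edgeR adjusted p = 0.322). Without Il-17ra-Cre replicate 3, Egr1 was lower in Il-17ra-Cre by -1.34 (edgeR adjusted p = 0.0336) and Egr3 by -0.80 (edgeR adjusted p = 0.0165). Npas4 was at 1.75 ± 0.91 and Fosb at 1.31 ± 0.65, neither past the threshold (edgeR adjusted p = 0.348 and 0.320). The other 5 genes lay between 0.020 and 0.61.

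Levels of different genes were set beside each other per kilobase of exon (RPKM, CPM per kilobase of merged exon length). In Il-17rb-Cre libraries Arc (482.7 ± 181.6 RPKM) and Egr1 (438.0 ± 81.9 RPKM) led and overlapped, with Junb, Nr4a1, Egr4 and Fos next, between 203.5 and 108.3 RPKM, each overlapping its neighbour. Egr3, Jun, Npas4 and Fosb followed in separate steps, from 41.1 ± 1.69 RPKM for Egr3 to 1.85 ± 0.229 RPKM for Fosb. In Il-17ra-Cre the order was Arc, Junb, Jun, Fos and Egr1, from 187.8 ± 62.7 down to 93.1 ± 70.9 RPKM with overlap between neighbours, and in Il-17rc-Cre it was Junb, Egr1, Jun, Fos and Arc, from 146.5 ± 38.9 down to 72.1 ± 37.3 RPKM, again overlapping. Jun thus ranked 3 in both of these groups and 8 in Il-17rb-Cre, where it was at 29.9 ± 3.70 RPKM. Npas4 and Fosb were the last of the order in all 3 groups.

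Within groups, most of the 10 genes were highest in the same library. In Il-17rc-Cre, replicate 4 was the highest of the 4 libraries for 9 of the 10 genes, all but Egr3, and 26.4% of all genes were highest there. In Il-17ra-Cre, replicate 3 was the highest for 9, all but Jun, beside 43.2% of all genes. In Il-17rb-Cre, replicate 2 was the highest for 7, all but Fosb, Egr3 and Jun, beside 34.4% of all genes. These counts were made after the values had been seen. The summed level of the 10 genes was 1515, 1531, 1467 and 2935 CPM in the Il-17rc-Cre replicates, 1728, 1819 and 3082 CPM in the Il-17ra-Cre replicates and 4525, 6553 and 4457 CPM in the Il-17rb-Cre replicates. In Il-17rc-Cre replicate 4 the summed pan-neuronal markers were the lowest of its group, at 4231 CPM with Tubb3 and 3915 CPM without. Its excitatory markers, at 2756 CPM, were not the lowest of the group, which ran from 2577 to 4134 CPM. In Il-17ra-Cre replicate 3 the summed pan-neuronal markers were the highest of their group, at 6676 CPM with Tubb3 and 6221 CPM without. The excitatory markers there were at 7770 CPM, against 1834 and 2160 CPM in its fellows. The library names end in 4 for both of these libraries and for Il-17rb-Cre replicate 3, which was the highest for 2 of the 10 genes.

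**Figure D3:**
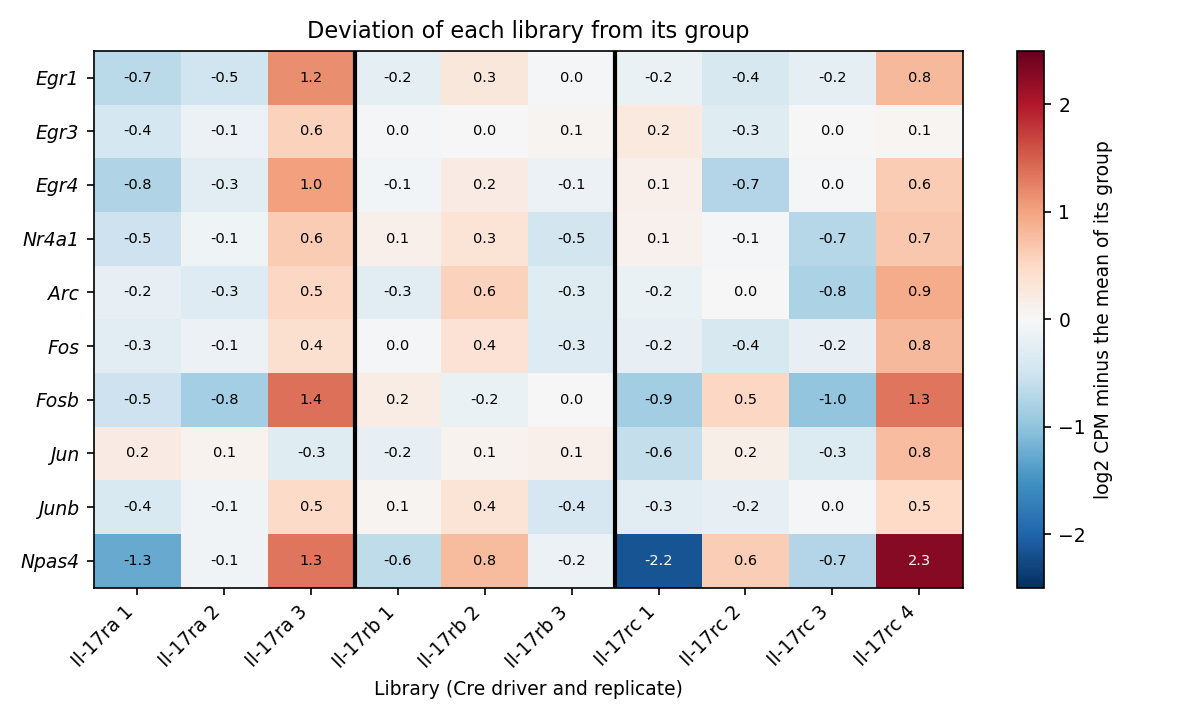
Log2 CPM of each gene in each library minus the mean of its group (red above, blue below), with groups divided by lines. The columns of Il-17ra-Cre replicate 3 and Il-17rc-Cre replicate 4 are above 0 in every row except Jun in the first, and the rows of Npas4 and Fosb are the most variable.

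The standard deviation of log2 CPM within groups was 1.47 for Npas4 and 0.98 for Fosb, between 0.53 and 0.66 for Nr4a1, Arc, Egr4 and Egr1, between 0.39 and 0.44 for Junb, Jun and Fos, and 0.31 for Egr3. The median over well-expressed genes (average log2 CPM 3 or more) was 0.30. In deviations from the group mean, which share the library and its scaling, Pearson's r over 10 libraries was 0.93 for Egr1 with Egr4, 0.92 for Fos with Junb, 0.89 for Egr3 with Egr4 and 0.88 for Arc with Nr4a1. For Jun, r was 0.15 with Egr1, -0.077 with Egr4, -0.42 with Egr3, 0.22 with Nr4a1 and 0.23 with Junb. It was 0.44 with Fos, 0.45 with Fosb and 0.53 with Arc, and highest, at 0.66, with Npas4. Egr3 also had low r with Npas4 (0.23) and Arc (0.32).

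**Figure D4:**
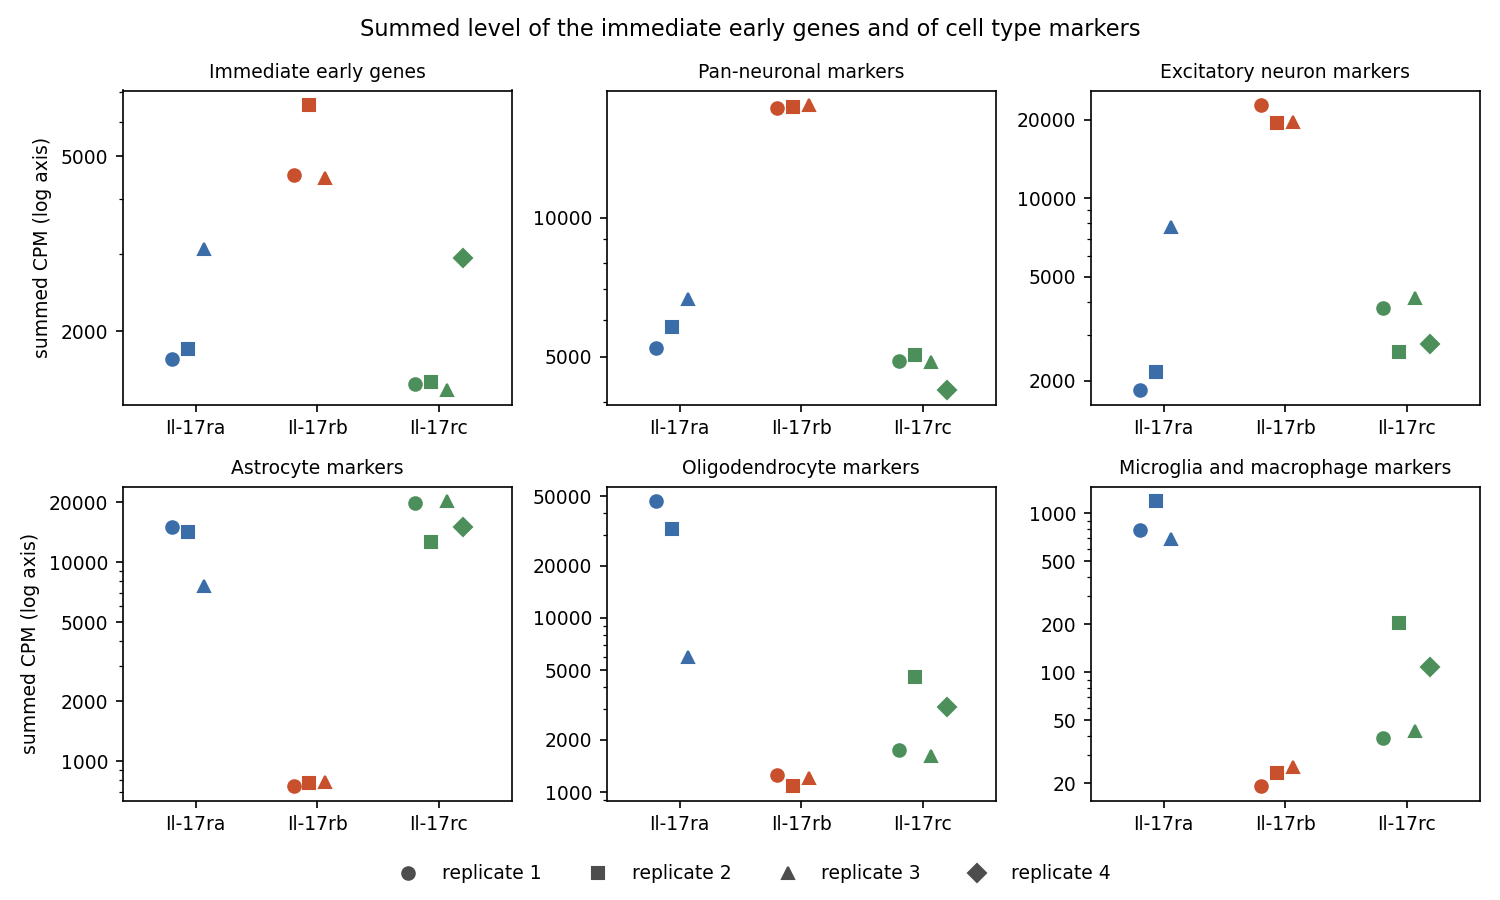
Summed CPM (vertical axis, log scale) of the 10 immediate early genes and of 5 sets of cell type markers in each library, by Cre driver, with marker shapes for replicates. The immediate early genes, the pan-neuronal and the excitatory markers are highest in Il-17rb-Cre and the glial markers lowest, while Il-17rc-Cre replicate 4 is the highest of its group for the immediate early genes at 2935 CPM and the lowest of its group for the pan-neuronal markers at 4231 CPM; Tubb3 makes up 2914 of the 5234 CPM of pan-neuronal markers in Il-17ra-Cre replicate 1.

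The other genes of the pathway were taken from lists of known members and are given under library-size scaling; the values when scaled to neuronal markers follow the lists. Of 21 upstream regulators, which carry the calcium signal to the promoters, 12 were higher in Il-17rb-Cre than in Il-17ra-Cre and 1 lower (median log2 fold change 1.00), and 13 were higher than in Il-17rc-Cre and 1 lower (median 0.91). Of all genes, as above, 16.4% were higher and 24.4% lower in the first comparison and 17.7% and 21.9% in the second, the background for this and the next 3 lists. Among them Mef2c, a transcription factor of activity-dependent genes, was higher by 1.84 ± 0.20 (edgeR adjusted p = 0.000106) against Il-17ra-Cre and by 1.69 ± 0.18 (edgeR adjusted p = 8.2e-05) against Il-17rc-Cre. Crtc1, a CREB coactivator, was higher by 1.46 ± 0.21 and 1.41 ± 0.19 (edgeR adjusted p = 0.000485 and 0.000320). Of 15 effector genes, 7 were higher and 1 lower against Il-17ra-Cre (median 0.90) and 8 higher and 1 lower against Il-17rc-Cre (median 1.14). Homer1, a postsynaptic scaffold, was at 236.6 ± 24.4 CPM (n = 3) in Il-17rb-Cre, 63.6 ± 19.8 (n = 3) in Il-17ra-Cre and 87.4 ± 10.1 (n = 4) in Il-17rc-Cre, and Nrn1, which encodes the neurite growth factor neuritin, at 250.4 ± 5.74, 47.5 ± 30.9 and 49.5 ± 7.26 CPM. Both were higher in Il-17rb-Cre in each comparison, by 1.89 ± 0.22 and 1.44 ± 0.20 for Homer1 (edgeR adjusted p = 0.000152 and 0.000374) and by 2.40 ± 0.38 and 2.34 ± 0.35 for Nrn1 (edgeR adjusted p = 0.000900 and 0.000537).

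Other rapidly induced genes were divided. Of 15 further transcription factors, 5 were higher and 5 lower against Il-17ra-Cre (median 0.027), and 6 higher and 5 lower against Il-17rc-Cre (median 0.29). The 4 with the smallest p were all lower. Atf3, a stress-induced factor, was at 8.01 ± 0.954 CPM in Il-17rb-Cre, 81.2 ± 8.73 in Il-17ra-Cre and 68.5 ± 34.7 in Il-17rc-Cre (log2 fold change -3.34 ± 0.38 and -3.10 ± 0.37, edgeR adjusted p = 0.000128 and 0.000136). Fosl1, another Fos relative, was at 0.621 ± 0.0478, 8.58 ± 7.29 and 17.1 ± 6.99 CPM (-3.80 ± 0.59 and -4.78 ± 0.61, edgeR adjusted p = 0.000792 and 0.000223). Maff and Klf4 were lower as well, with 6 reads of Klf4 in all 3 Il-17rb-Cre libraries together. Of 15 feedback regulators, 2 were higher and 5 lower against Il-17ra-Cre (median -0.33) and 2 higher and 6 lower against Il-17rc-Cre (median -0.47). Socs3, which restrains cytokine signalling, was at 5.47 ± 0.478 CPM in Il-17rb-Cre against 170.2 ± 17.8 in Il-17ra-Cre and 101.3 ± 45.7 in Il-17rc-Cre (-4.96 ± 0.39 and -4.21 ± 0.37, edgeR adjusted p = 1.6e-05 and 2.12e-05). Zfp36, which destabilises inflammatory mRNAs, was at 2.61 ± 0.436, 68.2 ± 25.9 and 97.1 ± 45.7 CPM (-4.71 ± 0.45 and -5.22 ± 0.45, edgeR adjusted p = 5.05e-05 and 2.12e-05). Dusp1, a phosphatase that switches off MAP kinases, was higher, at 272.1 ± 92.2, 78.3 ± 32.8 and 72.0 ± 19.3 CPM (1.80 ± 0.36 and 1.92 ± 0.33, edgeR adjusted p = 0.00292 and 0.00119). Scaled to the pan-neuronal markers, the medians of the upstream and effector lists turned to -0.90 and -0.86 against Il-17ra-Cre and to -0.75 and -0.53 against Il-17rc-Cre. No upstream regulator and 1 effector were then higher in either comparison. Of 21 upstream regulators 12 and 13 were lower, and of 15 effectors 8 and 3, beside 72.2% and 64.4% of all genes. On that scale the medians of the further transcription factors were -1.90 and -1.40, and those of the feedback regulators -2.38 and -2.16. Of the 15 further factors 10 and 9 were lower and 0 and 1 higher. Of the 15 feedback regulators 13 and 12 were lower and 0 higher. None of these lists had a call by edgeR between Il-17ra-Cre and Il-17rc-Cre. The part that the uneven marker levels play in these list counts was not tested.

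**Figure D5:**
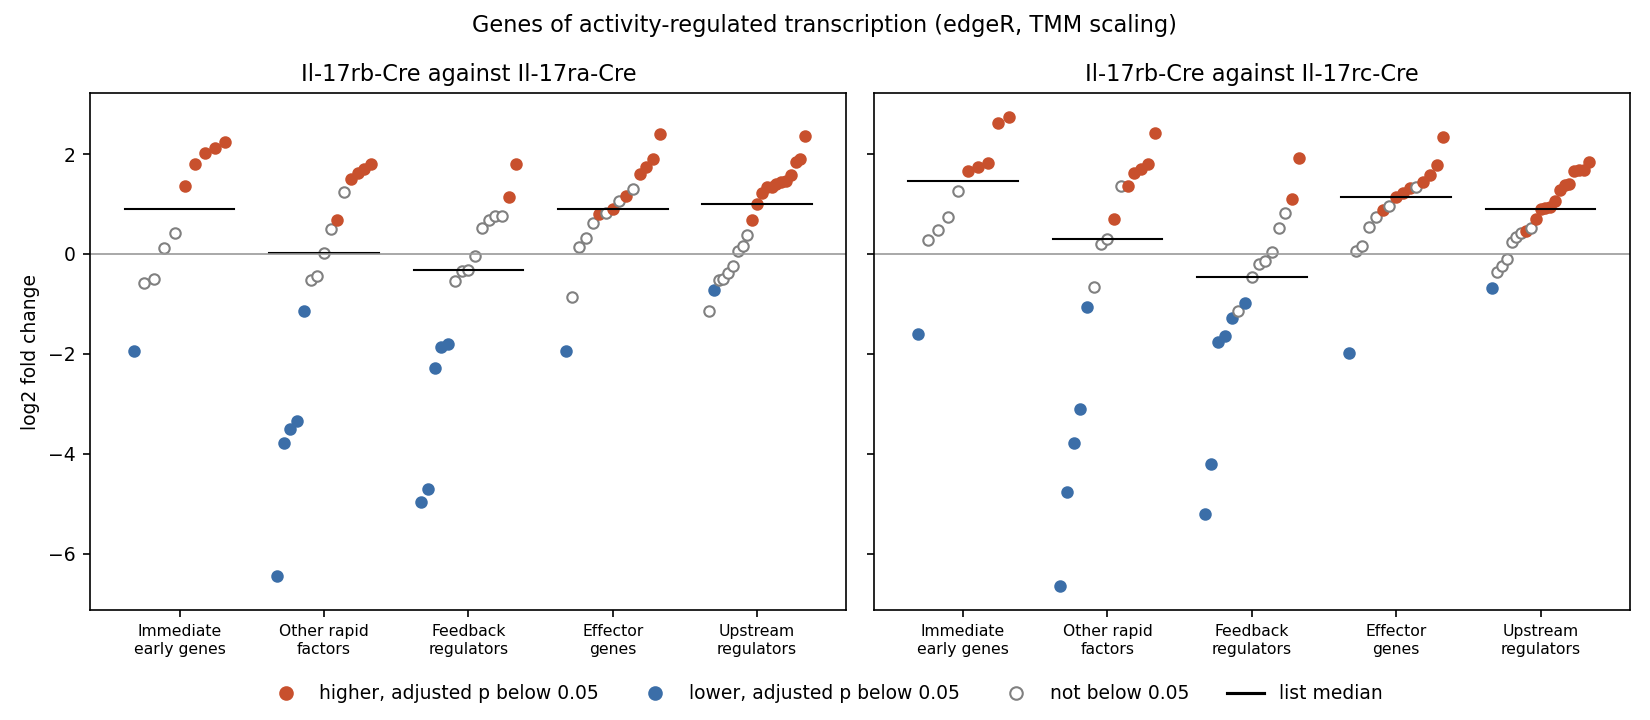
Log2 fold change of Il-17rb-Cre against Il-17ra-Cre (left) and Il-17rc-Cre (right) under library-size scaling for the immediate early genes and 4 lists of their pathway, each point a gene and each line a list median. Filled points passed the test; upstream regulators and effectors lie mostly above 0 here, with medians below 0 when scaled to neuronal markers, and other rapid factors and feedback regulators reach from near 2 to below -4, with Klf4 lowest.

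For each of the 10 genes, the named genes with the most similar course over the 10 libraries were sought among 10101 genes whose average log2 CPM was 3 or more. This r is taken over levels in all libraries, so differences between groups and variation between replicates both enter it. The nearest to Egr3 were Necab3, Mpp3 and Homer1, each at r = 0.99, and the nearest to Jun were Trafd1, Dtx3l and Parp11 (r = 0.99, 0.99 and 0.98). Fosb was nearest to Crem (0.96), Fos to its relative Fosl2 (0.86) and Junb to Qtrt1 (0.90). Arc was nearest to Hnrnpa3 (0.96), Nr4a1 to Bbs5 (0.97), Egr1 to Gnl1 (0.99), Egr4 to Mthfsd (0.98) and Npas4 to Lyst (0.95). Fos and Junb had the lowest best match of the 10 genes. Fosb and Npas4, which like them passed no edgeR test between groups under library-size scaling, had higher ones.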

How the data were processed

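The authors deposited raw counts per gene for 10 libraries. Per the submitters' processing notes, STAR 2.7.5c aligned the reads and the build was GRCm38; read assignment, strand setting and annotation release were not given in the sources used here. Per the labels' protocols, RNA of ribosomes pulled down with antibodies against GFP was turned into libraries with the SMART-Seq v4 kit, which amplifies cDNA; no molecular identifiers are named, so amplification adds to the error of low counts.

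Symbols came from GENCODE M21 (GRCm38), which held every one of the 55536 identifiers. edgeR's filter by group, with the 10 immediate early genes and the interleukin-17 receptor genes exempt, kept 20301 genes and dropped 35235. edgeR 4.0.16 (R 4.3.3) fitted a quasi-likelihood model over the 10 libraries jointly, with TMM factors, and p-values were adjusted over all genes by Benjamini-Hochberg at 0.05. The biological coefficient of variation was 0.489. The ± beside a log2 fold change is its standard error. The genes, the lists and the alternatives were chosen with earlier results of these data known. From each list the text names genes among the 4 with the smallest p in a comparison, and up to 3 genes of most similar pattern per gene. Alternatives were DESeq2 1.42.0, limma 3.58.1 voom with quality weights, 3 other scalings (1 of them also without Tubb3), 2 other filters, models without the group not compared, replicate blocks, and libraries left out. Same-numbered libraries deviated together weakly at most (r between -0.083 and 0.18, beside -0.19 to 0.084 for the others), so replicates were not treated as paired. The highest r were 0.18 between replicates 2 and 0.13 between replicates 3 of Il-17ra-Cre and Il-17rc-Cre. In data simulated from the 20301 genes, 100 genes were changed 2-fold and 100 were changed 4-fold, drawn from all genes tested, low counts included. The test recovered 35%, 41% and 48% of 4-fold changes for Il-17rb-Cre against Il-17ra-Cre, Il-17rb-Cre against Il-17rc-Cre and Il-17ra-Cre against Il-17rc-Cre. Of 2-fold changes it recovered 1%, 7% and 7%, so in that setting many changes of this size were missed. Far more genes were called in the data in both Il-17rb-Cre comparisons, which makes the Benjamini-Hochberg adjustment less strict. These shares therefore do not give the recovery for the 10 genes.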

Additional observations from a re-analysis of the deposited data

Results flagged for a closer look

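Fos in Il-17rc-Cre replicate 4, at 344.1 CPM, lay apart from the other 3 libraries of its group, which were between 149.3 and 171.6 CPM; the gap to the nearest was 0.885 of the whole range of the group. Egr1 in the same library, at 972.2 CPM, lay apart from the others at 423.5 to 495.5 CPM, with a gap of 0.869 of the range. With 4 libraries the limit is 0.829, and chance flags about 1 in 20 groups. The 10 genes were checked, and only the Il-17rc-Cre group has enough libraries. These checks share the same libraries and are not independent, so the flags do not count as separate events. Deviations of Fos and Egr1 from the group means had r = 0.84, and both flags fall on Il-17rc-Cre replicate 4. Without this library, the log2 fold change of Il-17rb-Cre against Il-17rc-Cre was 0.64 for Fos (edgeR adjusted p = 0.0561) and 2.08 for Egr1 (edgeR adjusted p = 0.00771).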

How the results depend on the processing

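Against Il-17ra-Cre and Il-17rc-Cre, Jun stayed below 0 and Egr1, Egr3 and Nr4a1 above 0 in Il-17rb-Cre under every alternative run, and so did Egr4 with 1 exception, given below. Leaving out each library in turn left 4 to 5 genes higher and 1 lower against Il-17ra-Cre, and 4 to 6 higher and 1 lower against Il-17rc-Cre. Scaling to pan-neuronal markers gave 0 higher and 4 lower against Il-17ra-Cre (14760 genes called in all, against 8268) and 1 higher and 3 lower against Il-17rc-Cre (13145 against 8057). It put Arc at -0.59, Fos at -1.84 and Junb at -1.51 against Il-17ra-Cre, and Fos at -1.42, Fosb at -0.97, Junb at -1.21 and Npas4 at -0.52 against Il-17rc-Cre. Leaving Tubb3 out of these markers, which was chosen after seeing the data, again gave 0 higher and 4 lower (14862 genes called) and 1 higher and 3 lower (13015). It put Egr4 at -0.0065, Arc at -0.64, Fos at -1.88 and Junb at -1.55 against Il-17ra-Cre, and Fos at -1.42, Fosb at -0.98, Junb at -1.21 and Npas4 at -0.54 against Il-17rc-Cre. Upper quartile scaling moved the median of all genes from -0.092 to 0.041 against Il-17ra-Cre and from 0.023 to 0.13 against Il-17rc-Cre. Without Il-17ra-Cre replicates 1 and 2 together, 1 gene was higher against Il-17ra-Cre, 4192 genes were called, and Fos was at -0.24 and Junb at -0.0088. Without Il-17rc-Cre replicates 1 and 3 together, 3 were higher against Il-17rc-Cre and Fos was at -0.0015. With voom, Fosb was at 0.30 and Npas4 at 0.093 against Il-17ra-Cre; against Il-17rc-Cre both were called higher, at 1.50 and 2.83 (limma adjusted p = 0.00838 and 0.00566). Leaving out single libraries gave -0.94 to 0.47 for Fosb, -0.99 to 0.43 for Npas4 and -0.075 to 0.35 for Fos against Il-17ra-Cre.

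Between Il-17ra-Cre and Il-17rc-Cre the number of genes called, 443, was unstable: 2132 with DESeq2, 4579 with voom, 691 with the filter at 1 CPM in 3 libraries, 1 in a model of only these 2 groups, 0 with scaling to pan-neuronal markers, with or without Tubb3, or without either pair of libraries, and 0 to 2886 with single libraries left out, the last without Il-17ra-Cre replicate 3. DESeq2 called 1 of the 10 genes higher (Arc), voom called 3 higher (Arc, Jun and Npas4) and 2 lower (Egr1 and Egr3), and leaving out single libraries gave 0 to 2 lower. Of the genes called, 63.4% were higher with TMM, 48.9% with DESeq2 size factors in edgeR and 47.0% with DESeq2. Egr4, near 0, was at -0.070 with DESeq2, -0.43 with voom, -0.068 with DESeq2 size factors in edgeR, -0.047 without a filter, -0.033 with the filter at 1 CPM and -0.041 in the model of only these 2 groups. Junb was at -0.019 with DESeq2, -0.0057 with voom, -0.018 with DESeq2 size factors and -0.0080 without a filter. Single libraries left out gave -0.67 to 0.26 for Egr4, -0.23 to 0.26 for Junb and -0.064 to 0.52 for Fos. Without Il-17rc-Cre replicates 1 and 3, Fos was at -0.12, Jun at -0.098, Junb at -0.15 and Egr4 at -0.060; without Il-17ra-Cre replicates 1 and 2, Jun was at -0.031 and Egr1 at 0.34. The cause of these shifts was not tested.

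With the title's replicate number as a replicate block, 5 genes were higher and 1 lower against Il-17ra-Cre, 6 higher and 1 lower against Il-17rc-Cre (Npas4 added, 2.72, edgeR adjusted p = 0.0132), and 2 genes in all were called between Il-17ra-Cre and Il-17rc-Cre. With the number in the library name as the block, 5 were higher and 1 lower in each, 1 gene in all was called between Il-17ra-Cre and Il-17rc-Cre, and Egr4 was at -0.092 there. No other of the 10 genes changed its call under either replicate block. Same-numbered libraries did not always correlate best with each other.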
